A study of Mus musculus with 10 samples.

Results

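The genes of YAP, TAZ and TEAD signaling described here were *Yap1*, *Wwtr1*, *Tead1*, *Cyr61*, *Ctgf*, *Ankrd1*, *Amotl2* and *Lats2*, found by their gene names in the table, 8 of 54532 genes. Of these 8 genes, 7 were among the 24508 genes with at least 0.1 FPKM (fragments per length of gene in kilobases, relative to library size) in at least 5 retinas, which were tested, and *Ankrd1* was not. RNA was sequenced from neural retinas of BALB/c mice, an albino strain that is sensitive to light, at an age of 2 months. All mice were first kept in the dark for 12 h. The 5 normal light (NL) retinas then came from mice held under 200 lux for 1 day, and the 5 light damage (LD) retinas from mice held under 15000 lux for 1 day. The retinas are named by the replicate numbers of the labels, NL-1, NL-4, NL-5, NL-7 and NL-8 and LD-1, LD-4, LD-6, LD-7 and LD-8, and nothing in the labels says whether any of them came from the same mouse. Read numbers recovered from the table were 21.3 to 26.8 M in the NL group and 19.0 to 23.4 M in the LD group. The rod markers, summed, stood at 8527 to 10386 FPKM in the NL retinas and at 1324 to 2578 FPKM in the LD retinas. Pigment epithelium markers stood at 60.3 to 166 FPKM under NL and 68.0 to 132 FPKM after LD.

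In the Hippo pathway, the kinases MST and LATS phosphorylate the coactivators YAP and TAZ and thereby keep them in the cytoplasm. When this brake is released, YAP and TAZ enter the nucleus, bind the TEAD transcription factors and switch on genes of growth, adhesion and the cytoskeleton, among them feedback inhibitors of the pathway itself. In the adult retina YAP is found mainly in Müller glia, the radial glia that span the tissue and react to injury, while vessels and the pigment epithelium, which lies outside the neural retina, also use the pathway. Much of the control acts on the proteins, by phosphorylation and location, and RNA levels do not measure it.

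TEAD factors bind DNA at sites with the core letters GGAATG, so the promoters of the genes were searched for this core on both strands. RefSeq windows (build GRCm38.p6) of 300 bases, 250 before and 50 after an annotated start, were at hand for 6 of the 8 genes, in 8 windows. The core was in 7 of these 8 windows and in at least 1 window of each of the 6 genes, against 14.66% of all 32851 windows. The 2 windows of *Wwtr1* overlap and hold the same core, which is thus counted 2 times among the 7. Neither the AP-1 motif TGANTCA, which 7.808% of all windows hold, nor a CArG box, the motif of serum response factor, which 1.629% hold, was in any of the 8. A match is a description of the letters and does not show that a factor binds there. The 250 bases before the start are given for *Cyr61* and *Wwtr1*, the members with the largest changes below, 5′ to 3′ on the strand of the gene, with the core in capitals. It reads CATTCC where it lies on the opposite strand.
*Cyr61*, chr3:145649986-145650235, minus strand: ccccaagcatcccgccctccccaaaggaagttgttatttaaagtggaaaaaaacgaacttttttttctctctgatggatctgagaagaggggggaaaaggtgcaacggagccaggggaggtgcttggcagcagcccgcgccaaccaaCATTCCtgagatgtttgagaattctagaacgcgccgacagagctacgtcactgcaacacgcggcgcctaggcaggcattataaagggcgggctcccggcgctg
*Wwtr1*, chr3:57575911-57576160, minus strand: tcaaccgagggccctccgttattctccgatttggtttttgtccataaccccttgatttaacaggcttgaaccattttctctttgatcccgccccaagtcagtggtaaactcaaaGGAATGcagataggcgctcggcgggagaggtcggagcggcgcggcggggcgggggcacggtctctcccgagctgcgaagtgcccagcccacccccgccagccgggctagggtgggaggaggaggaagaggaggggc
The core began 103 bases before the start in *Cyr61* and 136 bases before it in *Wwtr1*. For the other 4 genes, the 28 bases around each core are given to show how the flanks differ.
*Yap1*, chr9:8004721-8004748, minus strand: gggagtctgcaGGAATGtagcgacgcgc
*Amotl2*, chr9:102717728-102717755, plus strand: tgaaactctcaCATTCCtggcatagcag
*Ankrd1*, chr19:36120038-36120065, minus strand: tcactgccaaaGGAATGaccctctcaca
*Ankrd1*, chr19:36119951-36119978, minus strand: acactaagtctGGAATGaaaattcacct
*Lats2*, chr14:57746103-57746130, minus strand: gtgacgcccgtGGAATGccaacaatgta
The core began 141 bases before the start in *Yap1*, 65 before it in *Amotl2*, 210 and 123 before it in *Ankrd1*, and 4 after it in *Lats2*. In *Amotl2* and *Lats2* the RefSeq start lay inside the span that the table gives for the gene, so other starts of these genes were not covered.

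LD was compared with NL by limma on log2(FPKM + 0.1), and a gene was called changed when its adjusted p was under 0.01 and it differed by more than 2-fold. On this scale the change of genes with low FPKM is understated. By this rule 3 of the 7 members tested changed, *Cyr61*, *Wwtr1* and *Amotl2*, all of them higher after LD, where 6.51% of all genes tested changed, 4.13% higher and 2.37% lower. At the adjusted p alone, 5 of the 7 passed, against 17.0% of all genes. In the same 5 genes no LD retina overlapped with the NL range, which held for 22.4% of all genes. The median log2 fold change of the 7 members was 0.63, and that of all genes tested was -0.01. The *Lats2* and *Ctgf* levels did not pass, and were lower on average after LD.

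**Figure D1:**
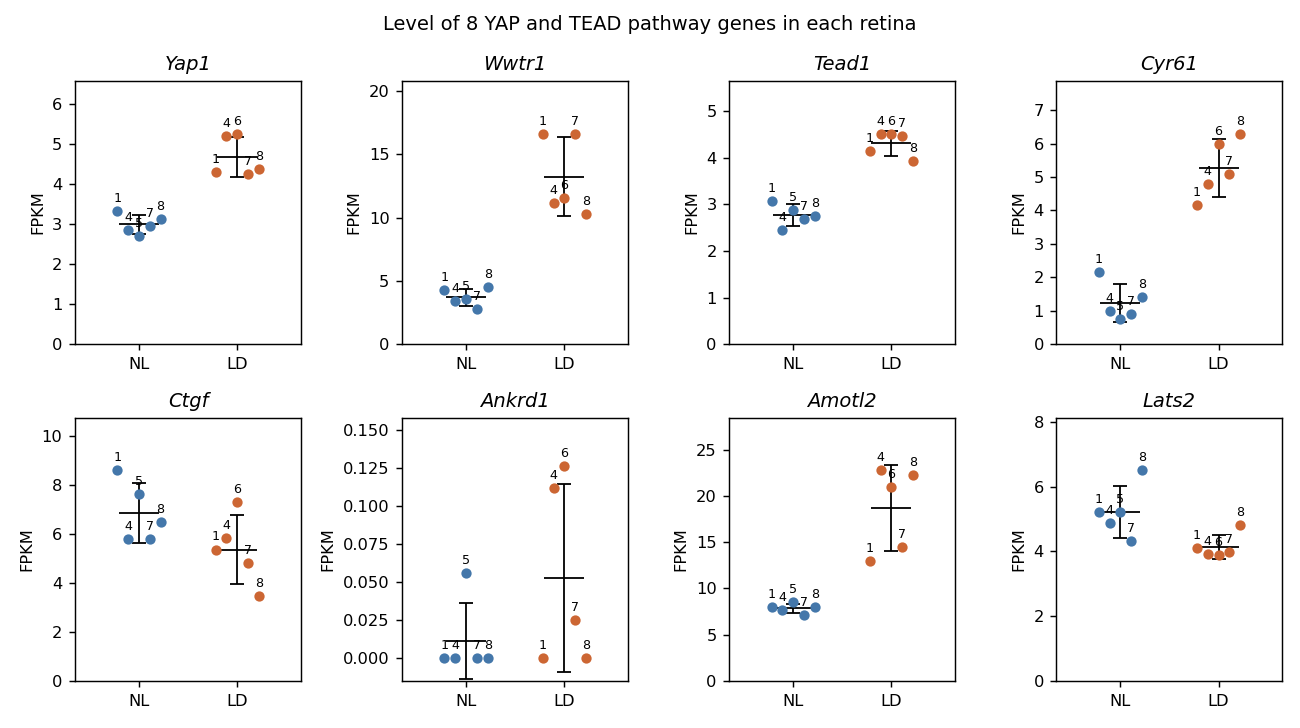
FPKM of the 8 genes in each retina under normal light (NL, blue) and after light damage (LD, orange). The numbers are the replicate numbers, and the black lines give the mean ± SD of 5 retinas. All LD retinas lie above all NL retinas for *Yap1*, *Wwtr1*, *Tead1*, *Cyr61* and *Amotl2*, while the groups overlap for *Ctgf*, *Lats2* and *Ankrd1*, which reached at most 5 reads.

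The coactivator genes come first. *Wwtr1* encodes TAZ and lies on the minus strand of chromosome 3 from 57455649 to 57575910 (GRCm38). It was at 4.27, 3.42, 3.55, 2.79 and 4.50 FPKM in NL-1, NL-4, NL-5, NL-7 and NL-8 and at 16.6, 11.2, 11.5, 16.6 and 10.3 FPKM in LD-1, LD-4, LD-6, LD-7 and LD-8. The lowest LD retina was above the highest NL retina, and LD-1 and LD-7 stood above the other 3 LD retinas. The mean was 3.70 ± 0.688 FPKM under NL and rose to 13.2 ± 3.11 FPKM (SD over 5 retinas), a difference of 1.80 ± 0.17 on the log2 scale (SE; limma, adjusted p = 3.00e-05). Between 283 and 555 reads per NL retina and between 1082 and 1939 reads per LD retina stood behind these values.

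*Yap1*, the gene of YAP, lies on the minus strand of chromosome 9 from 7931999 to 8004596. Its levels were 3.33, 2.86, 2.70, 2.95 and 3.14 FPKM in the NL retinas and 4.32, 5.20, 5.27, 4.27 and 4.38 FPKM in the LD retinas, in the order used for *Wwtr1*. The groups did not overlap, and LD-4 and LD-6 were the highest. Limma gave a difference of 0.63 ± 0.09 on the log2 scale (SE, adjusted p = 4.04e-04), with a 95% confidence interval of 0.43 to 0.82, so the adjusted p passed and the fold change stayed under 2.

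The 2 coactivators can be set side by side because a share within a retina does not depend on how the retina was scaled. Of the summed FPKM of *Yap1* and *Wwtr1*, *Wwtr1* made up 56.2, 54.4, 56.7, 48.6 and 58.9% in the NL retinas and 79.4, 68.2, 68.7, 79.5 and 70.1% in the LD retinas. The mean share of *Wwtr1* rose from 55.0 ± 3.89% to 73.2 ± 5.77% (SD, n = 5 each), by 18.2 percentage points (exact permutation test over the retinas, two-sided, p = 0.00794, which 5 against 5 cannot go below; 0.0317 after adjustment over 4 such shares). The smallest *Wwtr1* share after LD, in LD-4, was above the largest under NL, in NL-8.

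Among the TEAD factors, *Tead1* lies on the plus strand of chromosome 7 from 112679318 to 112906807. It was at 3.08, 2.45, 2.87, 2.68 and 2.74 FPKM in the NL retinas and at 4.15, 4.50, 4.51, 4.46 and 3.92 FPKM in the LD retinas. The groups did not overlap, and the 5 LD retinas were close to each other. The log2 difference of 0.62 ± 0.08 (SE; limma, adjusted p = 1.71e-04) had a 95% confidence interval of 0.45 to 0.79, also under 2-fold. A long non-coding gene on the opposite strand, *2310014F06Rik*, overlaps *Tead1* and held at most 64 reads in a retina, and whether the counting used strand is not given in the sources used here.

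*Tead3* was the most abundant TEAD gene and differed widely between LD retinas. It was at 6.78, 4.77, 5.14, 5.16 and 5.82 FPKM in the NL retinas and at 17.3, 6.13, 7.62, 17.2 and 10.5 FPKM in the LD retinas, high in LD-1 and LD-7 and within the NL range in LD-4. Its log2 fold change of 0.96 (standard error 0.28) did not pass (adjusted p = 0.0246 in limma). Without LD-4 it passed, at 1.16 (adjusted p = 0.00613 in limma). With each retina left out in turn it ranged from 0.79 to 1.16 (adjusted p 0.00613 to 0.0541). The share of *Tead1* in the summed FPKM of *Tead1* to *Tead4* was 26.2 to 28.3% under NL and 17.5 to 33.6% after LD, and the means differed by -2.90 percentage points (exact permutation test, p = 0.373). The lowest *Tead1* shares were in LD-1 and LD-7. Of the 8 TEAD and VGLL genes, the factors and their cofactors, 5 were tested and none changed by the rule, beside 6.51% of all genes tested. *Tead4*, *Vgll1* and *Vgll2* were below the filter on low values.

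**Figure D2:**
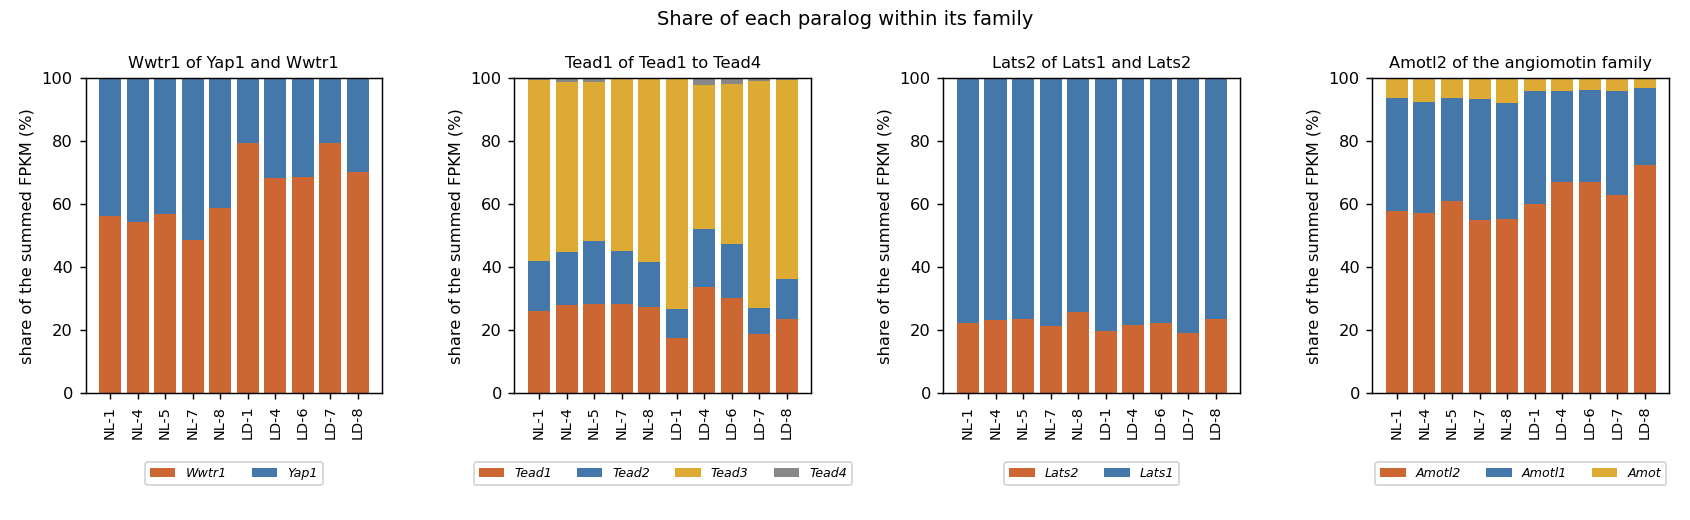
Share of each paralog in the summed FPKM of its family (percent), for each retina, in 4 families. The orange part at the bottom is *Wwtr1*, *Tead1*, *Lats2* or *Amotl2*. The *Wwtr1* part is 48.6 to 58.9% under NL and 68.2 to 79.5% after LD, and the *Tead1* part is smallest in LD-1 and LD-7.

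Of the 4 classical target genes, *Cyr61* changed most. It encodes CCN1, a secreted matrix protein of the CCN family, and lies on the minus strand of chromosome 3 from 145646976 to 145649981, where no other annotated gene overlaps it. It was at 2.15, 0.979, 0.756, 0.910 and 1.42 FPKM in the NL retinas and at 4.16, 4.79, 5.98, 5.09 and 6.30 FPKM in the LD retinas. NL-1 was the highest NL retina and still below all LD retinas. The mean was 1.24 ± 0.565 FPKM under NL and rose to 5.26 ± 0.873 FPKM (SD over 5 retinas), a difference of 2.07 ± 0.24 on the log2 scale (SE; limma, adjusted p = 1.30e-04), with 31 to 93 reads in an NL retina and 196 to 283 in an LD retina.

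*Ctgf*, the gene of CCN2 and the closest relative of *Cyr61* among the targets, lies on the plus strand of chromosome 10 from 24595442 to 24598683. It was at 8.61, 5.79, 7.64, 5.80 and 6.49 FPKM in the NL retinas and at 5.38, 5.84, 7.33, 4.82 and 3.49 FPKM in the LD retinas. The groups overlapped, with LD-4 and LD-6 within the NL range and LD-8 lowest. Limma gave a difference of -0.37 ± 0.18 on the log2 scale (SE, adjusted p = 0.166), with a 95% confidence interval of -0.78 to 0.04, and the exact permutation test gave p = 0.111. A rise of *Ctgf* beyond 0.04 on the log2 scale was thus outside the interval of this fit, at 222 to 527 reads per retina. The bound holds for this setting only, and over the other settings the difference was -0.59 to -0.23.

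The CCN family has 6 members, of which 4 were tested and 3 were called, beside 6.51% of all genes tested. Besides *Cyr61*, which was higher, *Wisp1* and *Wisp3*, the genes of CCN4 and CCN6, fell, by 1.78 and 1.41 on the log2 scale (standard errors 0.25 and 0.23, adjusted p = 3.77e-04 and 0.00117 in limma). *Wisp1* was at 4.06 to 5.08 FPKM in the NL retinas and 0.683 to 1.70 FPKM in the LD retinas, and *Wisp3* at 4.64 to 7.38 and 1.25 to 3.12 FPKM. Neither of them overlapped between groups, which held for 22.4% of all genes tested. Over the other settings *Wisp3* lost its call in 3 and *Wisp1* in 1. *Nov* and *Wisp2* were below the filter on low values.

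*Ankrd1*, a target in muscle and fibroblasts that encodes an ankyrin repeat protein, lies on the minus strand of chromosome 19 from 36111965 to 36119844. It had 0, 0, 2, 0 and 0 reads in the NL retinas and 0, 4, 5, 1 and 0 reads in the LD retinas. The reads fell on NL-5 and on LD-4, LD-6 and LD-7, and no fold change is given at this depth.

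*Amotl2* encodes angiomotin-like 2, a target of YAP and TAZ that binds and restrains YAP at cell junctions. The gene lies on the plus strand of chromosome 9 from 102716672 to 102733418 and had the highest mean FPKM of the 8 genes in both groups. It was at 8.02, 7.71, 8.47, 7.15 and 7.94 FPKM in the NL retinas and at 12.9, 22.7, 21.0, 14.5 and 22.2 FPKM in the LD retinas. The NL retinas lay close together, and LD-1 and LD-7 were below the other LD retinas but above all NL retinas. The mean was 7.86 ± 0.483 FPKM under NL and rose to 18.7 ± 4.62 FPKM (SD over 5 retinas), a difference of 1.20 ± 0.16 on the log2 scale (SE; limma, adjusted p = 2.46e-04).

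Within the angiomotin family, the share of *Amotl2* in the summed FPKM of *Amot*, *Amotl1* and *Amotl2* was 57.2 ± 2.46% under NL and 65.9 ± 4.73% after LD (SD, n = 5 each; exact permutation test, p = 0.0159, adjusted over the 4 shares p = 0.0317). The groups overlapped through NL-5 at 61.1% and LD-1 at 60.0%. For this share and that of *Wwtr1*, the adjusted p was 0.0635 when any retina other than NL-5 or LD-1 was left out. The *Wwtr1* shares did not overlap in any omission, so their unadjusted p was always the smallest the test can give. The adjusted p for *Wwtr1* thus turned on the *Amotl2* share. The *Wwtr1* difference itself stayed at 16.6 to 19.5 percentage points whichever retina was left out, so its size did not rest on a single retina. *Amotl1* had a log2 fold change of 0.75 (adjusted p = 9.99e-05 in limma), under 2-fold.

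*Lats2* encodes a kinase that phosphorylates YAP and TAZ and is itself listed among their targets. It lies on the minus strand of chromosome 14 from 57689662 to 57758388. It was at 5.23, 4.88, 5.23, 4.31 and 6.51 FPKM in the NL retinas and at 4.11, 3.91, 3.89, 3.98 and 4.81 FPKM in the LD retinas. Each LD retina except LD-8 was below all NL retinas. The log2 difference of -0.32 ± 0.11 (SE; limma, adjusted p = 0.0429) did not pass, with a 95% confidence interval of -0.55 to -0.09, and without the factor per retina in the library sizes it was -0.19, where the median of all genes tested was 0.11. The share of *Lats2* in the summed FPKM of *Lats1* and *Lats2* was 23.2 ± 1.67% under NL and 21.2 ± 1.83% after LD (SD, n = 5 each; exact permutation test, p = 0.135, adjusted p = 0.180), so *Lats1* held most of the LATS FPKM in every retina.

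The order of the 8 levels in FPKM, which is per gene length, differed between the groups. Under NL it ran from *Amotl2* through *Ctgf*, *Lats2*, *Wwtr1*, *Yap1*, *Tead1* and *Cyr61* to *Ankrd1*, and the ranges of neighbours overlapped down to *Tead1*. After LD it ran from *Amotl2* through *Wwtr1*, *Ctgf*, *Cyr61*, *Yap1*, *Tead1* and *Lats2* to *Ankrd1*. There the ranges of *Amotl2* and *Wwtr1* overlapped, both lay above *Ctgf*, and those of neighbours from *Ctgf* to *Lats2* overlapped again.

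The LD retinas differed from each other in a way that cut across the pathway. LD-1 and LD-7 had the highest *Wwtr1* and *Tead3*, and in *Amotl2* they were the lowest. The same 2 retinas were lowest in the target *Myof*, a membrane repair protein, at 6.53 and 6.81 FPKM against 12.3, 11.6 and 9.32 FPKM in LD-4, LD-6 and LD-8. They were also lowest in *Ajuba*, a LIM protein that binds LATS kinases, at 3.00 and 3.52 FPKM against 5.99, 6.55 and 4.70 FPKM. *Ajuba* was chosen for this account after its values were seen. LD-1 and LD-7, and likewise LD-4 and LD-6, were also among the most alike pairs of retinas over all genes (chi-square per gene 3.65 and 2.65, and at least 16.9 for the other LD pairs). NL-5 and NL-7 were another such pair, at 2.87, and the other NL pairs were at 12.2 or more. Averaging each of the 3 pairs left 4 NL and 3 LD samples, and *Wwtr1*, *Cyr61* and *Amotl2* still passed (limma, adjusted p = 0.00126, 0.00396 and 0.00222), while 1076 genes in place of 1595 were called in all. Without LD-1 and LD-7 the log2 fold changes were 1.56 for *Wwtr1* and 1.47 for *Amotl2*, and without LD-4 and LD-6 they were 1.93 and 1.03, and in each case both genes passed the rule.

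**Figure D3:**
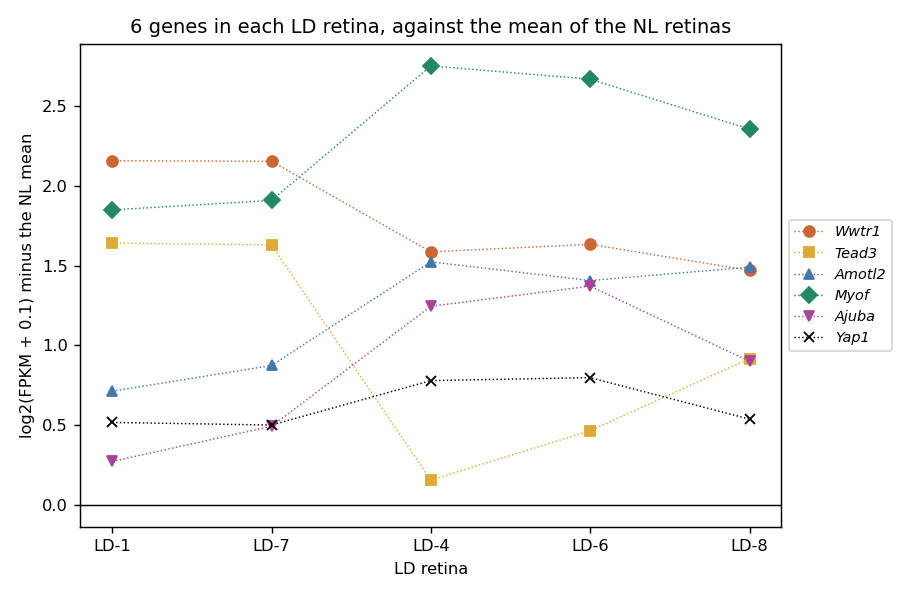
Log2(FPKM + 0.1) of 6 genes in each LD retina minus their mean over the 5 NL retinas, with 0 as the NL mean; the dotted lines only join points of a gene. *Wwtr1* and *Tead3* are highest in LD-1 and LD-7, where *Amotl2*, *Myof* and *Ajuba* are lowest.

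The upstream arm was described from a list of 16 Hippo kinases and adaptors, all of which were tested. None changed by the rule, which 6.51% of all genes tested passed. At the adjusted p alone 3 were higher and 3 lower, where 17.0% of all genes passed. *Map4k4*, a kinase that can phosphorylate LATS, was at 14.2 to 16.2 FPKM in the NL retinas and 23.1 to 24.5 FPKM in the LD retinas, a difference of 0.61 ± 0.04 on the log2 scale (SE; limma, adjusted p = 3.48e-06). *Taok3*, a TAO kinase, was at 10.8 to 14.8 FPKM in the NL retinas and 6.68 to 7.89 FPKM in the LD retinas, a difference of -0.87 ± 0.09 on the log2 scale (SE; limma, adjusted p = 4.34e-05). Both genes were without overlap between the groups, as were 22.4% of all genes tested. The median log2 fold change of the 16 genes was 0.01, and it was 0.13 without the factor per retina.

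Of 16 junction and polarity regulators, *Amotl2* was higher and *Crb2*, of the Crumbs complex that holds glia and photoreceptors together at the outer limiting membrane, was lower. These 2 were the only genes of the list called, beside 6.51% of all genes tested, and *Amotl2* is already counted among the members. *Crb2* fell from a mean of 22.3 ± 1.60 to 9.08 ± 1.41 FPKM (SD over 5 retinas), a difference of -1.30 ± 0.10 on the log2 scale (SE; limma, adjusted p = 5.75e-06). Its relative *Crb1* was at -0.83 (adjusted p = 4.32e-05), under 2-fold.

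A signature of 22 genes known as YAP and TAZ targets, which includes 5 of the members, had 21 genes tested. Of these, 7 were higher and 1 was lower by the rule, beside 4.13% and 2.37% of all genes tested, and the median log2 fold change was 0.41, with -0.01 over all genes tested. Among the 17 genes of the signature that are not members, 5 were higher and 1 was lower. The receptor tyrosine kinase gene *Axl* was at 2.08 to 2.95 FPKM in the NL retinas and 12.7 to 14.6 FPKM in the LD retinas. *Myof* rose by 2.31 (standard error 0.17), and *F3*, the gene of tissue factor, rose by 1.34 (standard error 0.10) on the log2 scale (adjusted p = 5.76e-06 and 4.45e-06 in limma).

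*Tgfb2*, the gene of a growth factor, rose by 1.04 and lay at the limit of 2-fold, at 0.91 without LD-4 and LD-6. *Igfbp3*, which encodes a binding protein of insulin-like growth factors, rose by 1.09 (adjusted p = 0.00656 in limma) on only 29 to 32 reads per NL retina, and lost its call when any 1 of 8 of the 10 retinas was left out, LD-1 and LD-8 being the exceptions (adjusted p 0.00423 to 0.0181 over the 10 omissions), and at 0.53 with a pseudocount of 1. *Fjx1* and *Arhgef17*, at 0.62 and 0.40, passed at the adjusted p and were under 2-fold. The gene that was lower, *Nt5e*, encodes CD73, a surface enzyme known as a marker of rods. It fell by 2.27 on the log2 scale (standard error 0.15, adjusted p = 2.46e-06), from 16.6 to 24.7 FPKM in the NL retinas to 3.49 to 6.02 FPKM in the LD retinas. Beside it, all 8 rod markers were lower after LD by the rule, where 2.37% of all genes tested were.

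**Figure D4:**
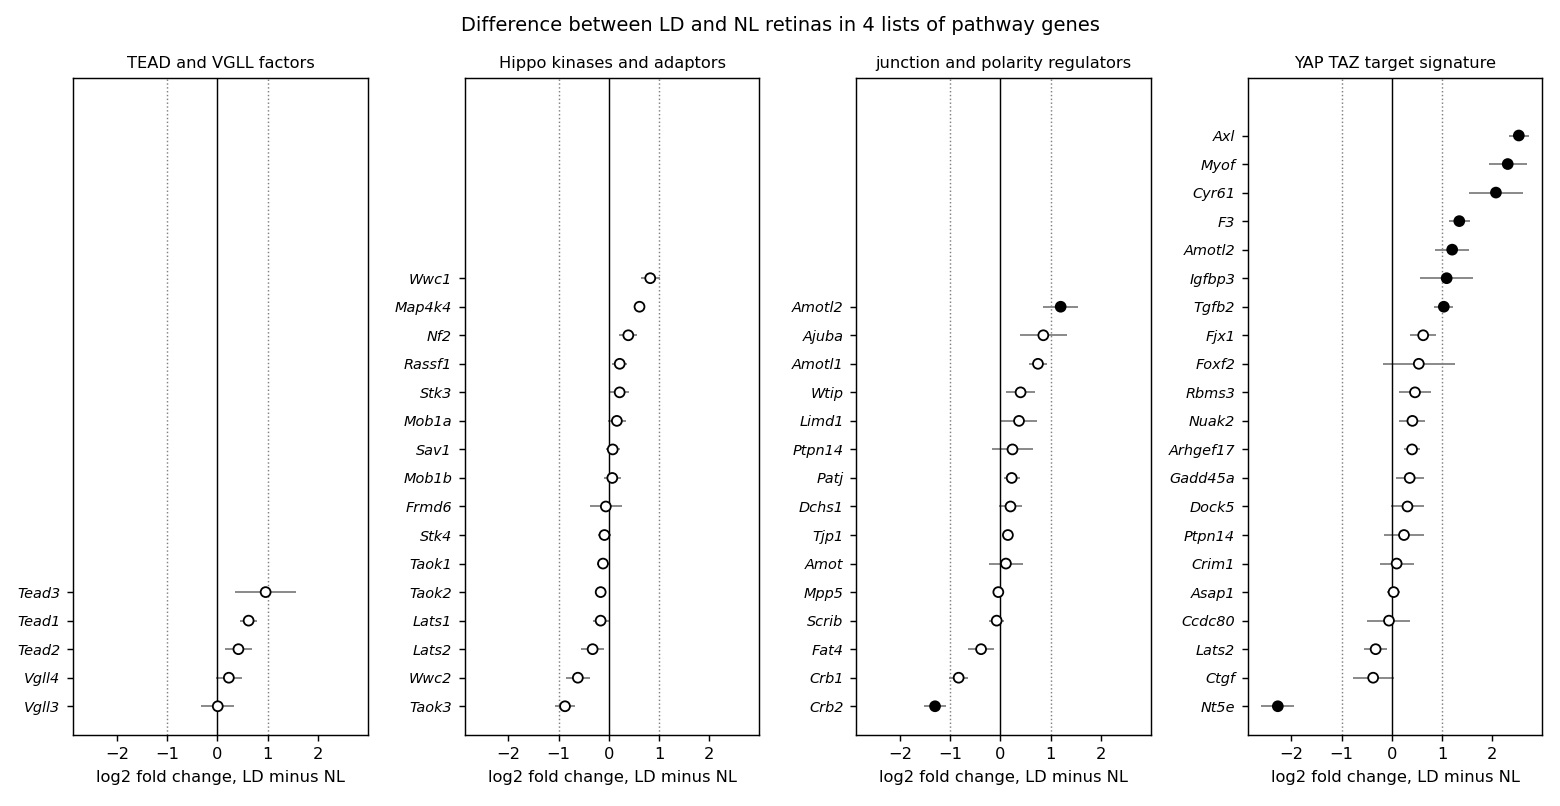
Log2 fold change (LD minus NL) of genes from 4 lists, with 95% confidence intervals. Filled points passed an adjusted p of 0.01 and a fold change of 2, and dotted lines mark 2-fold. In the target signature 7 genes are filled on the right and *Nt5e* on the left, and in the Hippo kinases none is filled.

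YAP and TAZ signaling and serum response factor share cytoskeletal targets, and 10 of 12 such actin and SRF target genes were tested. *Flna*, the gene of filamin A, rose by 1.08 on the log2 scale (adjusted p = 1.87e-05 in limma). It was the only gene of the 10 that was called, beside 6.51% of all genes tested. *Actb* and *Cnn2*, at 0.96 and 0.92, passed at the adjusted p and were under 2-fold, and both were above 2-fold without the factor per retina (1.09 and 1.05). The median of the 10 genes was 0.06.

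A retina holds many cell types, and in bulk samples fewer cells of a type and less RNA per cell cannot be told apart. The 9 Müller glia markers were all measured, and their summed FPKM was 1100 to 1332 under NL and 609 to 861 after LD. The sum followed *Glul*, the glutamine synthetase gene, which fell by 2.09 on the log2 scale, while *Vim*, the gene of vimentin, rose by 2.02. The other 7 markers were not called, and of all genes tested 6.51% were called. *Vim* was lowest of the LD retinas in LD-1 and LD-7, at 75.4 and 85.4 FPKM, as *Amotl2* was. *Sox9*, *Slc1a3*, *Car14*, *Kcnj10* and *Rlbp1* were lowest in the same retinas too. This did not hold for *Aqp4*, *Dkk3* and *Glul*, and *Glul* was highest of the LD group in LD-1, at 177 FPKM.

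Of the 9 endothelial markers, 1 was called, *Ly6c1*, which was higher, beside 6.51% of all genes tested that were called. The endothelial sum was 48.4 to 58.4 FPKM in the NL retinas. It was 105 and 106 FPKM in LD-4 and LD-6, and 67.4 to 67.7 FPKM in the other LD retinas. The largest part of it in every retina was *Kdr*, at 27.1 to 37.1 FPKM under NL and 38.1 to 64.4 FPKM after LD. *Kdr* had a log2 fold change of 0.70 (limma, adjusted p = 0.00876), under 2-fold. The defining markers *Cdh5* and *Pecam1* were low, at 0.406 to 1.21 and 0.658 to 1.61 FPKM over all retinas, and neither was called. Their log2 fold changes were 0.40 and 0.06 (limma, adjusted p = 0.320 and 0.900). *Yap1* was highest in LD-4 and LD-6, and without them its log2 fold change was 0.52 (limma, adjusted p = 0.00252). Among the LD retinas, the Müller glia sums were also highest in these 2 retinas, at 835 and 861 FPKM. So were the astrocyte, pericyte, fibroblast and lens sums, and the pigment epithelium, skeletal muscle, microglia and rod sums were not. Of the 7 microglia and macrophage markers, 5 were called higher, beside 4.13% of all genes tested. The sums of the 7 were 9.53 to 13.4 FPKM under NL and 20.0 to 38.3 FPKM after LD. Of the pericyte, pigment epithelium, fibroblast, skeletal muscle and lens markers none was called, and 1 of 5 astrocyte markers was (*Gfap*, higher), where 6.51% of all genes tested were. NL-1 and NL-8 stood apart from the other NL retinas in some of these lists. *Tyrp1*, a pigment cell gene, was at 4.23 and 7.70 FPKM in them and at most at 1.32 FPKM in the other NL retinas, and *Dcn*, the gene of decorin in connective tissue, was at 0.833 and 0.538 FPKM and otherwise at most at 0.059 FPKM. *Cyr61*, *Wwtr1* and *Yap1* were highest of the NL group in the same retinas, and the other members were not. Without NL-1 and NL-8 the log2 differences of these genes were 2.44, 1.97 and 0.70 (limma, adjusted p = 2.14e-05, 1.86e-04 and 0.00165). The part of these cell types in the members' changes was not tested.

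**Figure D5:**
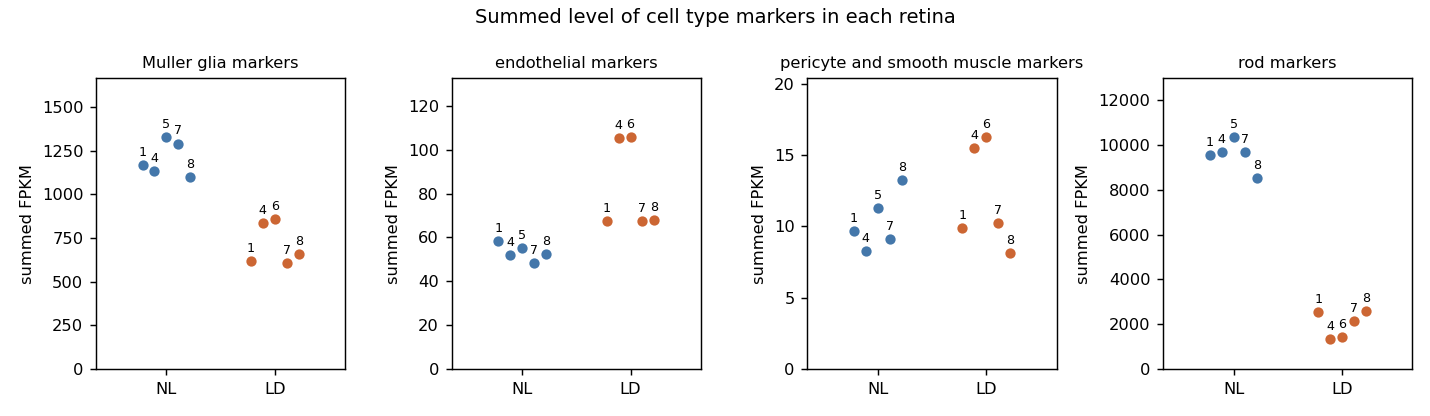
Summed FPKM of 4 lists of cell type markers in each retina, numbered by replicate. Müller glia sums are 1100 to 1332 under NL and 609 to 861 after LD, and rod sums are lower in all LD retinas. Among the LD retinas, the Müller glia, endothelial and pericyte sums are highest in LD-4 and LD-6.

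Last, the genes most like *Yap1* and *Ctgf* were looked for among 12427 protein-coding genes that averaged at least 1 FPKM, by the Pearson correlation of log2(FPKM + 0.1) over the 10 retinas after each group's mean was removed. For *Yap1* these were *S100a10* (r = 0.97), *Lamb2* (0.95) and *Ccdc88c* (0.95), and for *Ctgf* they were *Ccdc25* (0.95), *Mpv17* (0.94) and *Spsb1* (0.93). Over so many genes and 10 retinas, some of which are closely alike, such values are a description only.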

How the data were processed

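The deposited table holds FPKM values, made by the authors, of 54532 genes in 10 neural retinas, with gene positions and lengths. TruSeq libraries were made from total RNA, and a sequencing company ran the sequencing and the normalization (paired reads, per the study's methods). The submitters' processing notes name TopHat2 2.0.9, Bowtie2 2.0.6 and build mm8, but 53499 of the 54532 gene positions equal those of GENCODE M21 on GRCm38, which is the build used for positions here. Of the 8 members 7 had the same position there, and the span given for *Ankrd1* is that of the deposited table, which differed. The program that counted reads and its strand setting are not given in the sources used here, so reads of overlapping genes on opposite strands may be mixed. FPKM times gene length gave whole reads for 100% of values (within 0.01 reads), 19.0 to 26.8 M reads per retina. The library size also carried a factor per retina, 0.951 to 0.968 under NL and 1.041 to 1.069 after LD.

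Groups and replicate numbers were taken from the labels. For 24508 genes that reached 0.1 FPKM in 5 or more retinas, log2(FPKM + 0.1) was compared between LD and NL in limma 3.58.1 (R 4.3.3) with an intensity trend, all 10 retinas and no block, and Benjamini-Hochberg adjustment over all genes tested. A gene was called when its adjusted p was under 0.01 and it differed by more than 2-fold. Single values and paralog shares were in addition compared with exact permutation tests, two-sided, between the retinas (scipy 1.17.1, numpy 2.4.6, pandas 2.3.3, Python 3.11.15), and figures were drawn with matplotlib 3.10.9. Nothing in the labels says that the retinas came from separate mice, so p-values measure the spread between these samples. The model was tested on simulated data in which all changes were larger than 2-fold, so calls near the 2-fold limit were not tested by it.

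The 8 members, the gene lists and the tests were chosen with earlier results of these data known. Named genes are the 8 members. From each pathway list they are also every gene called, the 2 others with the smallest adjusted p and the 1 with the highest mean FPKM, of which 1 gene is not reported here. Paralogs, markers and the 3 genes most like *Yap1* and *Ctgf* complete them. Alternatives changed the pseudocount, filter, scaling, trend, test, threshold, block and the retinas included, and 3 of them, each leaving out a pair of retinas, were added after seeing the data. Promoter sequences came from RefSeq tables of GRCm38.p6.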

Additional observations from a re-analysis of the deposited data

Results flagged for a closer look

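In 4 of 62 groups of 5 retinas looked at among the named genes, 1 retina stood far from the other 4 by Dixon's criterion, where chance gives about 1 in 20, or 3.1. *Lats2* was at 4.81 FPKM in LD-8, and at most 4.11 FPKM in the other LD retinas. *Taok3* was also highest in LD-8, at 7.89 FPKM against at most 7.01 FPKM. *Axl* was at 2.95 FPKM in NL-1 and no higher than 2.27 FPKM in the rest of the NL group. *Flna* was at 37.9 FPKM in LD-7 and at most 34.4 FPKM in the other LD retinas.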

How the results depend on the processing

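In all, 3 members were called under every alternative but the threshold of an adjusted p under 0.05 with no minimum fold, which called 6. Under that threshold 6818 genes were called, with 3 in the TEAD and VGLL list, 8 in the Hippo kinases, 9 in the junction list, 13 in the target signature and 3 in the actin list. A pseudocount of 1 gave 816 genes in place of 1595. When each retina was dropped in turn, the genes called were 1379 to 1603, those in the TEAD list 0 to 1 and those in the actin list 1 to 2. The log2 fold change over the settings was 1.56 to 1.97 for *Wwtr1*, 1.50 to 2.44 for *Cyr61*, 1.03 to 1.47 for *Amotl2*, 0.51 to 0.76 for *Yap1*, 0.50 to 0.75 for *Tead1*, -0.59 to -0.23 for *Ctgf* and -0.39 to -0.19 for *Lats2*.

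Whether the 4 replicate numbers shared by the groups pair the retinas is not given in the labels. Deviations from the group means correlated only weakly between retinas of the same number (-0.09 to 0.07), which cannot decide it. LD-1 and LD-4 had their highest correlation with the NL retina of their own number, and LD-7 and LD-8 did not. With the replicate block over these 8 retinas 808 genes were called, and 1182 over the same retinas without it. The block left the 3 members called, with 1 CCN gene called, and gave *Yap1* and *Tead1* adjusted p of 0.0257 and 0.0188. Permuted within the 4 pairs, the shares of *Wwtr1* and *Amotl2* differed by 19.8 and 9.30 percentage points with an adjusted p of 0.167, where 4 pairs cannot reach 0.05. With 1 retina left out the differences were 16.6 to 19.5 and 6.98 to 10.1 points, with adjusted p of 0.0317 to 0.0635 for both, above 0.05 in 8 of the 10 omissions. For *Wwtr1* the groups never overlapped, so the unadjusted p stayed at the smallest value that the exact permutation test can give.

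Without the factor per retina, which put the median of all genes tested at 0.11, the medians were 0.55 for the TEAD, 0.13 for the Hippo, 0.31 for the junction and 0.19 for the actin list, with 3 actin genes called. TPM scaling gave 0.11 for the Hippo and 0.28 for the junction list and 3 actin genes, and quantile normalization -0.043 for the Hippo list and 2 actin genes. A pseudocount of 1 gave 0.29 for the TEAD list, a filter at 1 FPKM 0.52 for it and 0.18 for the actin list, and no filter 0.18 for the CCN list. Without LD-4 and LD-6, 1 TEAD gene was called and the medians were 0.31 for the TEAD and 0.089 for the junction list. Without NL-1 and NL-8, 2 actin genes were called and their median was 0.21. The cause of these changes was not tested. Depth limits *Ankrd1*, with at most 5 reads per retina.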
